A study of Rattus norvegicus with 24 samples.

Results

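The mitochondrial carrier family SLC25 was examined in the TA (tibialis anterior, which lifts the foot) of old male Fischer 344 rats (23 ± 1 months). Its members were taken by symbol, as every row of the expression table whose gene symbol was Slc25a followed by a number, with the row of highest mean kept for each symbol. This gave 39 genes of 13458 symbols in the table, and 37 of them were above 0 in enough limbs to be tested. In 9 animals, tetrodotoxin (TTX), a sodium channel blocker, was delivered to the nerve of the left limb, while the right limb received none. Left TA was collected after 6 to 7 days of TTX (atrophy, n = 3 animals), once 9 days without TTX had followed (recovery, n = 3), or when a second exposure of 5 to 6 days had been added to these (repeated atrophy, n = 3). The right TA of the same 9 animals served as control, and both limbs of 3 further animals, operated in the same way without TTX, formed the sham groups. Each animal gave a single time point, so the groups are different animals and not the same animals followed through time. The sham animals carried the time labels of atrophy (animal 354), recovery (377) and repeated atrophy (379), with 1 animal at each. RNA came from unsorted tissue of a piece of each muscle, and fewer cells of a type and less RNA per cell cannot be told apart in such samples.

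Carriers of this family sit mostly in the inner mitochondrial membrane and move metabolites that the membrane would otherwise hold back. They exchange ATP made in the matrix for ADP from the cytosol, bring in phosphate for ATP synthesis, pass reducing equivalents and fatty acid units across, and supply the matrix with amino acids, cofactors, nucleotides, iron and glutathione. In skeletal muscle the ADP/ATP carrier Slc25a4 (ANT1) is known as an abundant protein of the inner membrane. A few relatives are not inner membrane carriers, such as the peroxisomal Slc25a17 and Slc25a46 of the outer membrane.

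Levels are given in CPM (counts per 1000000), which are not corrected for transcript length, and fold changes are on the log2(CPM + 1) scale. That scale understates the change of genes at a few CPM. A gene was called when it differed by at least 1.2-fold with an adjusted p of at most 0.05, from limma with Benjamini-Hochberg adjustment over all 14031 rows tested. The median gene sat 0.22 above 0 after atrophy and 0.20 above 0 after repeated atrophy on this scale, against 0.02 after recovery. Calls were also made after a median of ratios rescaling, which brought these medians to -0.00, -0.01 and 0.02, and both are given. The left limb of animal 367 stood apart from the rest of the atrophy group. Its 10 most abundant rows held 25.6% of its CPM, against 13.0% and 15.6% in the left limbs of animals 362 and 372, and the 9 control limbs held 24.3% to 32.8%. The summed level of 8 muscle fibre markers ranged from 95587 to 165071 CPM in control limbs from 67055 to 110913 CPM in atrophy limbs, from 120628 to 135326 CPM in recovery limbs and from 77936 to 94378 CPM in repeated atrophy limbs, and none of the fibre markers was at 0 in any group.

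The 39 carriers spanned a wide range of levels. In control limbs 4 were at 100 CPM or more on average, 13 between 10 and 100, 16 between 1 and 10, and 6 below 1. Slc25a41, an ATP-Mg/phosphate carrier, was above 0 in 2 of 24 limbs, and Slc25a47, whose substrate is not settled, in 4 of 24; these are the 2 members that were not tested. Per kilobase of transcript, the control mean was 3517 CPM for Slc25a4, 788 CPM for the phosphate carrier Slc25a3, 165 CPM for the malate/2-oxoglutarate carrier Slc25a11 and 69.1 CPM for the carnitine/acylcarnitine carrier Slc25a20. Slc25a4 alone held 72.8% ± 2.1 (SD, n = 9) of the family's summed length-corrected level in control limbs. That share was 66.8% ± 4.9 (n = 3) after atrophy, 71.6% ± 1.3 (n = 3) after recovery and 58.2% ± 1.9 (n = 3) after repeated atrophy. The 3 repeated atrophy limbs, at 56.2% to 60.0%, all lay below the lowest control limb, at 67.7%. Summed over the 39 members, the family reached 6426 ± 970 CPM in control limbs, 4785 ± 935 in atrophy limbs, 7790 ± 1664 in recovery limbs and 3285 ± 299 in repeated atrophy limbs, sums that Slc25a4 and Slc25a3 dominate. The 3 repeated atrophy limbs again lay below every control limb, 3627 CPM at the highest against 4481 CPM at the lowest.

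After atrophy, 3 of the 37 members rose and 0 fell. Among all rows, 20.3% were called higher and 2.33% lower, so the members' share of rises, 8.11%, was below the background. After rescaling 2 members rose and 2 fell, against 4.62% and 5.21% of all rows. With the animal as a block, which compares the limbs of each animal, 0 members were called, but 0% of all rows were called in that fit too. In it 10 members had an unadjusted p under 0.05. That count has no unadjusted share of all rows beside it and is not read as a result about the members. The atrophy count also rested on single libraries: it was 0 without the left limb of animal 362 or of animal 372 and 10 without that of animal 367. It was likewise 10 without the right limb of animal 372, and 5 without the right limb of animal 366 or 367 or the repeated atrophy limb of animal 364.

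After recovery, 3 members rose and 1 fell, against 4.4% of all rows higher and 3.33% lower. Rescaled, 4 rose and 1 fell, against 6.48% and 5.52% of rows. With the animal as a block, 0 members were called, and 0.0641% of all rows were called. In that fit 10 members were at an unadjusted p under 0.05, again without an unadjusted share of all rows to set them against. The count was 1 or 2 without any 1 of the 3 recovery limbs and 2 without the control limb of animal 362 or 365. The 3 recovery limbs were above every control limb for 2 members, Slc25a5 and Slc25a24 (5.57% of all rows), and below for 2, Slc25a25 and Slc25a38 (4.84% of all rows). Summed over 5 fibroblast markers, the recovery limbs ranged from 1022 to 1918 CPM and the control limbs from 194 to 528 CPM. The sums were 221 to 528 CPM after atrophy and 319 to 514 CPM after repeated atrophy. The 5 did not move together: Col1a1, Col3a1 and Lum were above every control limb in the 3 recovery limbs, whereas Pdgfra and Dcn overlapped the control limbs. None of the 5 was at 0 in any group. The 4 cycling cell markers summed to 6.17 to 12.9 CPM in the recovery limbs against 0.46 to 4.79 CPM in the control limbs. This was not particular to recovery: they summed to 3.51 to 23.5 CPM after atrophy. The limbs of sham animal 354, which received no TTX, were at 30.8 CPM (left) and 28.6 CPM (right). Taken singly, Cdk1 and Ccnb1 overlapped between recovery and control limbs. The 6 macrophage markers summed to 91.6 to 195 CPM in the recovery limbs, overlapping the control limbs at 34.1 to 127 CPM. Of these, Adgre1, Cd68 and Mrc1 were above every control limb, whereas C1qa, Csf1r and Cd163 overlapped them. The part of these lists in the carrier changes after recovery was not tested.

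After repeated atrophy, 13 members rose and 7 fell. These are 35.1% and 18.9% of the members, where 28.1% of all rows were called higher and 6.24% lower. Rescaled, 6 members rose and 12 fell, against 12.9% and 12.2% of all rows, so the larger part of the calls pointed down on that scale. The median log2 fold change of the members was -0.00 against 0.20 for all rows as deposited, and -0.14 against -0.01 rescaled. With the animal as a block, 8 rose and 6 fell, against 21.5% and 5.66% of all rows. The muscle fibre markers of these 3 limbs, at 77936 to 94378 CPM, summed to less than in any control limb. The 8 markers did not move together: Atp2a1 was at 14788, 13550 and 17720 CPM, below all control limbs (33862 to 53346 CPM), Mb at 11506, 17790 and 17929 CPM, above all of them (6206 to 8929 CPM), and the other 6 overlapped them. Their part in the carrier changes was not tested. Of the 2 satellite cell markers, Myf5 was at 37.6, 60.8 and 32.0 CPM in these limbs against 1.98 to 11.6 CPM in control limbs, whereas Pax7 was at 0.08, 1.03 and 1.11 CPM against 0 to 1.17 CPM. Myf5 was also at 45.7 and 86.0 CPM in the atrophy limbs of animals 362 and 372 and at 68.6 and 52.0 CPM in the sham limbs of animal 379, and its part in the changes was not tested. The count was 13 without the repeated atrophy limb of animal 365 or of animal 366. Of the 20 calls, 7 held when each of the 18 limbs was left out in turn: the falls of Slc25a4 and Slc25a11 and the rises of Slc25a5, Slc25a16, Slc25a17, Slc25a27 and Slc25a37. Each of these 7 was also called after rescaling and with the animal as a block. All 3 repeated atrophy limbs were above every control limb for 6 members (16.5% of all rows) and below every control limb for 5 (3.87% of all rows). The sham animal of the same time point (379), which received no TTX, had both limbs beyond all control limbs on the side of the call for 5 of the 20 called members, Slc25a5, Slc25a11, Slc25a17, Slc25a27 and Slc25a33. This is 25.0% of them, and 34.4% of the 4812 called rows did the same.

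**Figure D1:**
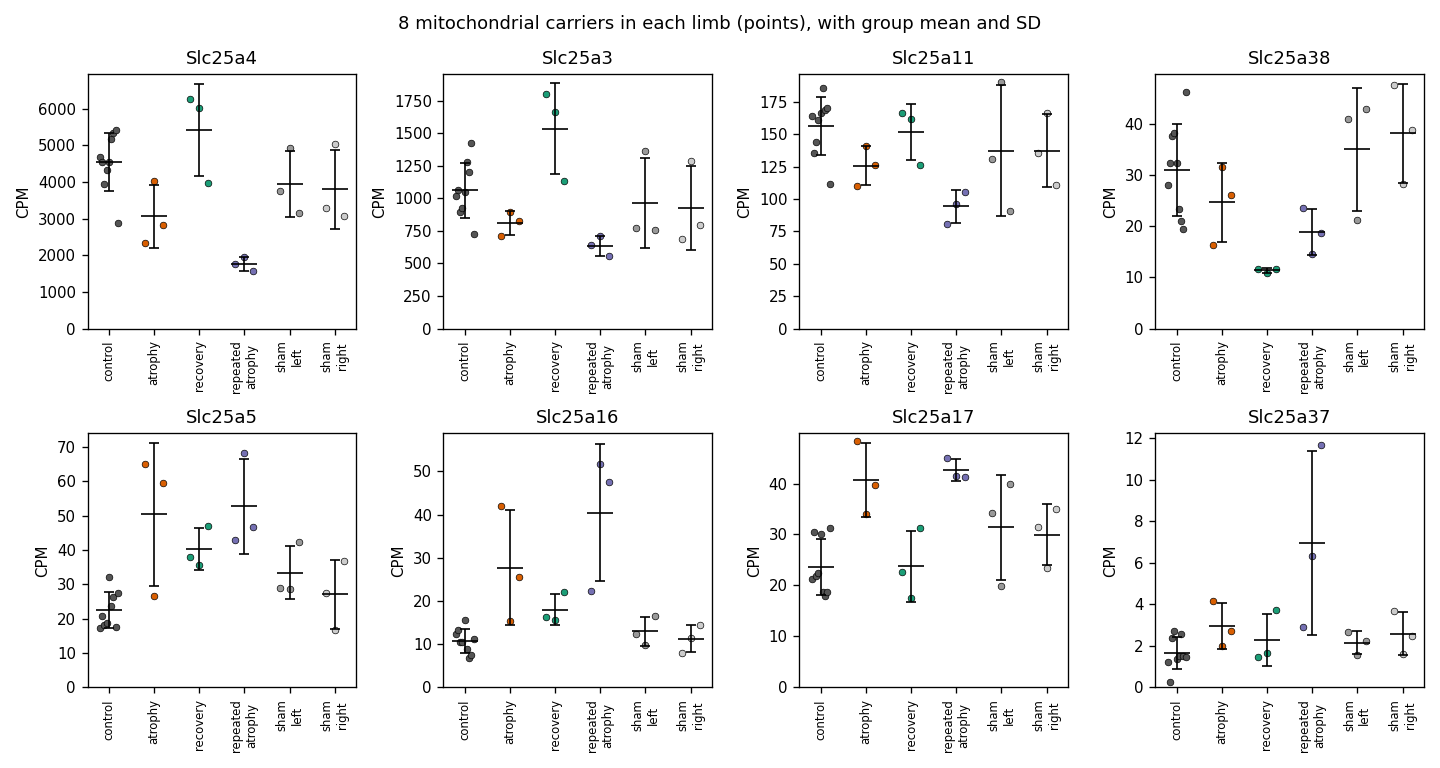
CPM of 8 carriers (1 panel each, linear axis from 0) in every limb of the 6 groups. Points are limbs, and the black marks are the group mean and SD; the 3 repeated atrophy limbs lie below all 9 control limbs for Slc25a4, Slc25a3 and Slc25a11 and above them for Slc25a5, Slc25a16, Slc25a17 and Slc25a37, while Slc25a38 is lowest in the 3 recovery limbs.

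**Figure D2:**
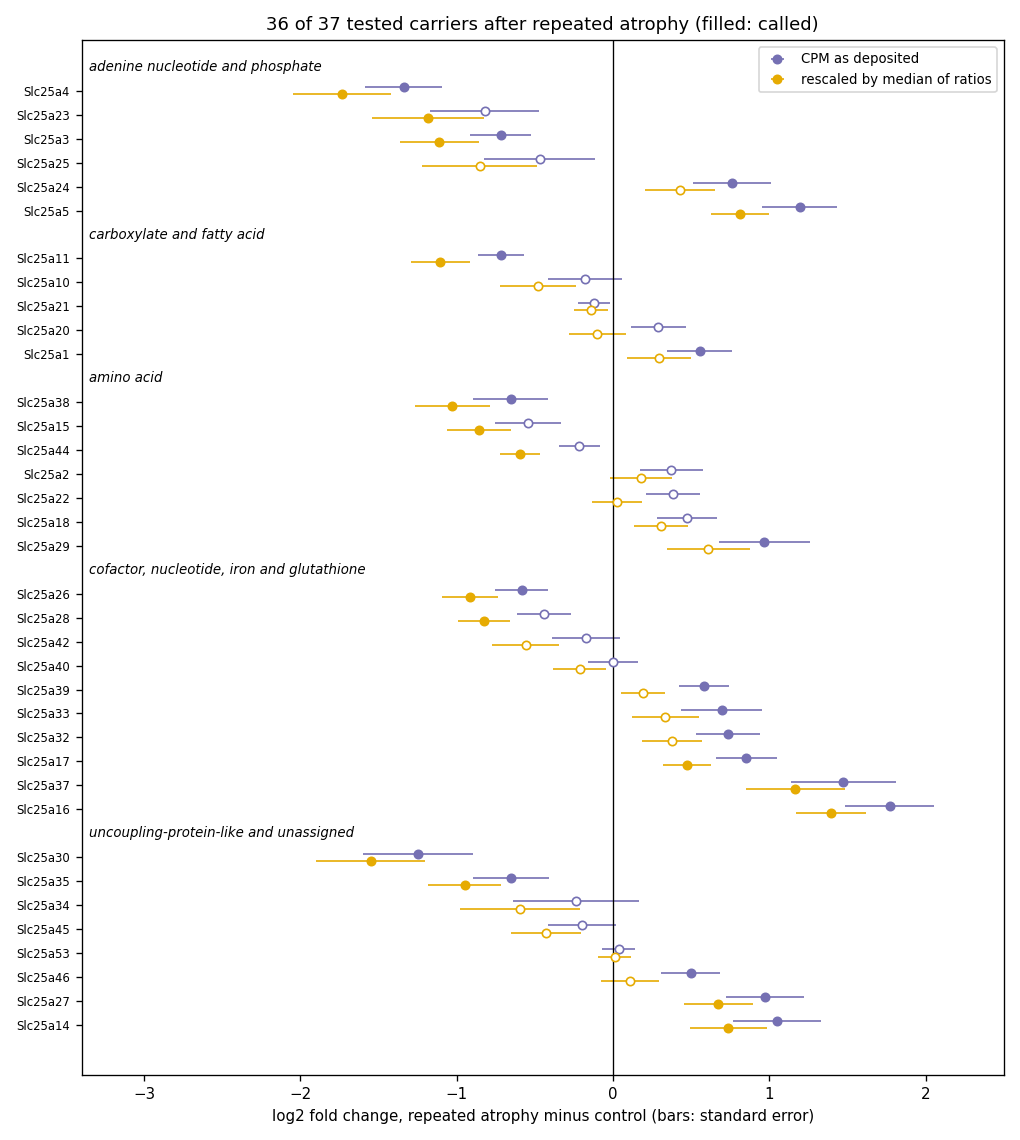
Log2 fold change (x axis) between repeated atrophy and control for 36 of the 37 tested carriers (y axis, grouped by role), with bars for the standard error. Purple points use CPM as deposited and yellow points the rescaled values, and filled points were called; rescaling moves every carrier shown to the left, and over all 37 tested carriers 13 rises become 6 and 7 falls become 12.

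Of the carriers of adenine nucleotides and phosphate, 6 were tested. After repeated atrophy Slc25a4 and Slc25a3 fell, while Slc25a5 and Slc25a24 rose. Slc25a4 (chromosome 16, 46072935 to 46076731, rn7) lay between 2869 and 5423 CPM in the 9 control limbs, with a median of 4556 CPM. It was at 2344, 4022 and 2822 CPM in the atrophy limbs of animals 362, 367 and 372, at 6273, 6014 and 3973 CPM in the recovery limbs of animals 369, 370 and 371, and at 1772, 1956 and 1581 CPM in the repeated atrophy limbs of animals 364, 365 and 366. The repeated atrophy limbs were all below the control limbs, whereas the atrophy and recovery limbs overlapped them. The log2 fold change was -1.34 (SE 0.25, adjusted p = 0.00064) after repeated atrophy, and -1.73 rescaled. After atrophy it was -0.58 (adjusted p = 0.094), which was not called, and after recovery 0.25 (adjusted p = 0.57).

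Slc25a5, the ADP/ATP carrier isoform ANT2 found in many tissues (chromosome X, 116031896 to 116034964), moved the other way. Its control limbs ranged from 17.2 to 32.1 CPM with a median of 20.9 CPM. The left limbs were at 65.1, 26.5 and 59.6 CPM after atrophy (animals 362, 367 and 372), at 38.0, 35.7 and 47.1 CPM after recovery (animals 369, 370 and 371) and at 42.9, 68.4 and 46.8 CPM after repeated atrophy (animals 364, 365 and 366). All recovery and repeated atrophy limbs were above the control limbs, and the atrophy limb of animal 367 was within them. The sham limbs of animal 379, at 42.2 and 36.8 CPM, were above the control limbs as well. Against control it differed by 1.06 (adjusted p = 0.0092) after atrophy, 0.83 (adjusted p = 0.042) after recovery and 1.19 (adjusted p = 0.0013) after repeated atrophy on the log2 scale. With the animal as a block, the repeated atrophy call stayed (1.37, adjusted p = 0.016), while the adjusted p was 0.21 after atrophy and 0.26 after recovery. The atrophy call was lost without the left limb of animal 362 or 372, and the recovery call in 9 of 18 fits that left out 1 limb.

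The ratio of CPM of the ADP/ATP carrier isoforms is taken within a limb, and library scaling enters its log2 form only through the 1 added to each value. Slc25a5 CPM was 0.519% of Slc25a4 CPM on average in control limbs, 1.85% in atrophy limbs, 0.795% in recovery limbs and 2.96% in repeated atrophy limbs. On the log2 scale the ratio lay between -8.20 and -6.65 in the 9 control limbs. It was -5.15, -7.19 and -5.54 in the atrophy limbs of animals 362, 367 and 372, where the limb of animal 367 fell inside the control range. It was -7.33, -7.36 and -6.37 after recovery (animals 369, 370 and 371) and -5.34, -4.82 and -5.05 after repeated atrophy (animals 364, 365 and 366), with every repeated atrophy limb above every control limb. The difference from control was 2.53 after repeated atrophy, a 5.79-fold higher ratio (exact two-sided permutation test over 220 splits, p = 0.0045, the smallest these groups can give, and adjusted p = 0.020 over 9 ratio tests). After atrophy the difference was 1.64 (exact p = 0.014, adjusted p = 0.041), and it was 1.23 and 1.43, each with an exact p of 0.055, without the left limb of animal 362 or of animal 372. After recovery it was 0.58 (exact p = 0.077, adjusted p = 0.14), which did not pass. These tests treat the limbs as independent, although each left limb shares its animal with a control limb. Paired within animals, the left limb exceeded the right by 2.36, 2.86 and 2.72 in the repeated atrophy animals 364, 365 and 366, a mean of 2.64 ± 0.26 (SD, n = 3). In the atrophy animals 362, 367 and 372 the differences were 2.86, -0.09 and 1.11, so their sign was mixed and their mean, 1.29 ± 1.48, was within their spread. An exact sign-flip permutation test of 3 pairs cannot go below p = 0.25, which the repeated atrophy animals gave, and the atrophy animals gave p = 0.50. The sham limbs averaged -6.84 on the left and -7.11 on the right, with 4 of the 6 inside the range of the control limbs. The other 2 were the limbs of animal 379, at -6.19 and -6.34, above the control limbs on the side of the repeated atrophy limbs but below all of these. How reads shared by near-identical copies of these genes were assigned is not given in the sources used here, so the isoform levels carry that uncertainty.

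The promoters of these isoforms are shown because their transcripts moved in opposite directions after repeated atrophy. Each sequence runs from 250 bases before to 50 after the gene start in RefSeq (GRCr8, plus strand), at chr16:52805271-52805570 for Slc25a4 and chrX:120897366-120897665 for Slc25a5. Capitals mark the GC box GGGCGG and the CCAAT box CCAAT on either strand.
Slc25a4: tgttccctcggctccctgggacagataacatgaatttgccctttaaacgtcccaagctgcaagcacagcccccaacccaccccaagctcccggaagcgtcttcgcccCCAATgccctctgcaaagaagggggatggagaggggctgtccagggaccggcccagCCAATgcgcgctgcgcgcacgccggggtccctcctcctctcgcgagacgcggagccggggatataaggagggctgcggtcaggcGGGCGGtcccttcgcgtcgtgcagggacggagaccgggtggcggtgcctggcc
Slc25a5: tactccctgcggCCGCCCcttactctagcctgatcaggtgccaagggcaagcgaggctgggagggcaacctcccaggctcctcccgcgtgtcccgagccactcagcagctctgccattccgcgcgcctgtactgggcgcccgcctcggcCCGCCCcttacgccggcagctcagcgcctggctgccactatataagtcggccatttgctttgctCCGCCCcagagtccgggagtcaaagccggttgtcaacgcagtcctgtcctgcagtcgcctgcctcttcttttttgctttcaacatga
The Slc25a4 window held 1 GC box and 2 CCAAT boxes, and the Slc25a5 window 3 GC boxes and 0 CCAAT boxes. A RefSeq promoter was matched by symbol for 33 of the 39 members. A GC box was in 72.7% of these and in 34.9% of all 27457 promoters of this length, and a CCAAT box was in 57.6% against 37.7%. The 27457 promoters were not limited to genes expressed in this muscle. Whether the members differ from other expressed genes in these boxes was not tested. The letters TNAAGGTCA of an estrogen-related receptor site were in 0 of the 33 and in 1.15% of all promoters, which says only that these letters were not in these windows.

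**Figure D3:**
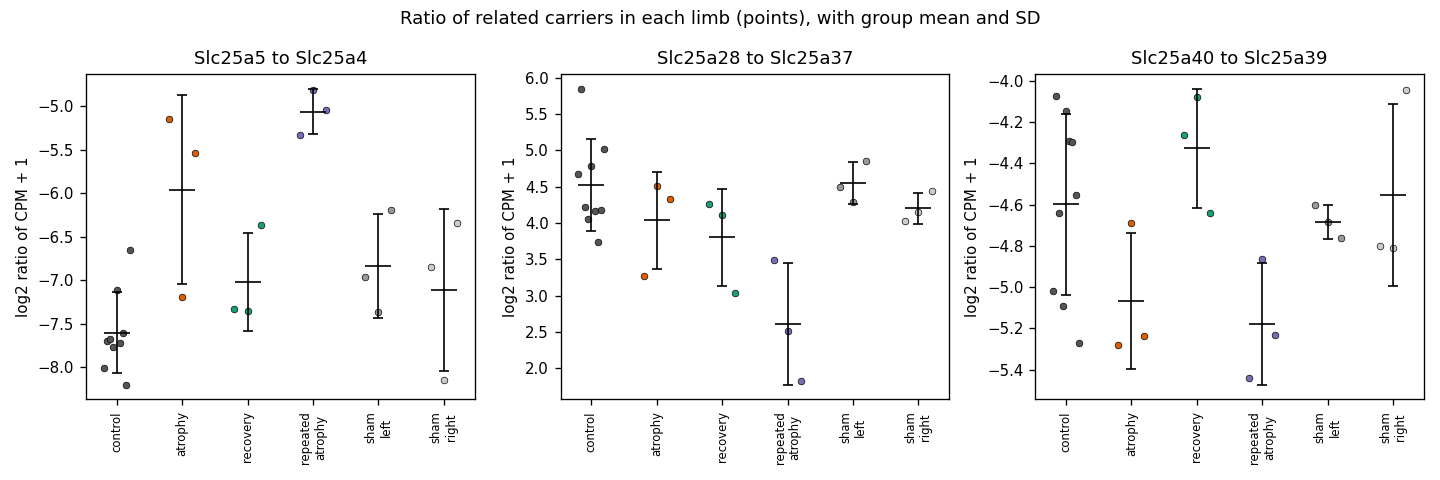
Log2 ratio of CPM + 1 (y axis) of 3 pairs of related carriers in every limb of the 6 groups, with points for limbs and black marks for the mean and SD. The Slc25a5 to Slc25a4 ratio of the 3 repeated atrophy limbs, -5.34 to -4.82, lies above all control limbs, and their Slc25a28 to Slc25a37 ratio, 1.83 to 3.49, lies below all control limbs.

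Slc25a3, which carries the phosphate used by ATP synthase (chromosome 7, 25611937 to 25619402), ranged from 726 to 1423 CPM in control limbs with a median of 1049 CPM. It was at 714, 895 and 826 CPM after atrophy (animals 362, 367 and 372), at 1802, 1666 and 1137 CPM after recovery (animals 369, 370 and 371) and at 642, 711 and 558 CPM after repeated atrophy (animals 364, 365 and 366). Its repeated atrophy limbs were all below the control limbs, and those of the other groups overlapped them. The log2 fold change after repeated atrophy was -0.72 (SE 0.20, adjusted p = 0.0084) and -1.11 rescaled, but with the animal as a block the adjusted p was 0.069 at -0.59. Without the repeated atrophy limb of animal 366 the adjusted p was 0.054. Slc25a3 has another row in the table, at the same coordinates and 1348 instead of 1351 bases long, which held 1.25% ± 0.42 (SD, n = 9) of the gene's CPM in control limbs and 2.25% ± 1.05 (n = 3) after repeated atrophy, and was called in no comparison with control.

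Among the calcium-regulated ATP-Mg/phosphate carriers, Slc25a24 averaged 3.85 ± 1.13 CPM (SD, n = 9) in control limbs, 6.94 ± 2.33 (n = 3) in atrophy limbs, 8.93 ± 1.92 in recovery limbs and 7.20 ± 2.12 in repeated atrophy limbs. Its recovery limbs, at 6.71 to 10.1 CPM, were all above the control limbs. Its log2 fold change was 1.05 (adjusted p = 0.018) after recovery and 0.76 (adjusted p = 0.026) after repeated atrophy, with block adjusted p of 0.22 and 0.17, and the repeated atrophy call was lost after rescaling. Sham limbs of animal 354 were at 9.82 and 9.33 CPM, within the range of the recovery limbs. Slc25a25 was at 17.01, 23.1 and 33.6 CPM after recovery (animals 369, 370 and 371), below all control limbs (34.4 to 103 CPM), with an adjusted p of 0.061, and it was called lower after repeated atrophy with the block (-0.66, adjusted p = 0.013). Slc25a23 was not called as deposited (-0.82 after repeated atrophy, adjusted p = 0.078) and was called lower after rescaling (-1.19).

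Of 5 tested carriers of carboxylates and fatty acids, Slc25a11 fell and the citrate carrier Slc25a1 rose after repeated atrophy, and Slc25a20 rose after recovery. The aspartate/glutamate carriers Slc25a12 and Slc25a13, partners of Slc25a11 in the malate-aspartate shuttle, were not analysed here. Slc25a11 ranged from 112 to 186 CPM in control limbs with a median of 164 CPM. It was at 110, 141 and 127 CPM after atrophy (animals 362, 367 and 372), at 166, 162 and 127 CPM after recovery (animals 369, 370 and 371) and at 81.0, 96.5 and 106 CPM after repeated atrophy (animals 364, 365 and 366), where no limb reached the control range. The sham limbs of animal 379, at 90.8 and 111 CPM, were also below it. After repeated atrophy the log2 fold change was -0.72 (SE 0.15, adjusted p = 0.0014). It fell after atrophy only on the rescaled values (-0.68, adjusted p = 0.032, against -0.30 and 0.14 as deposited).

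Slc25a20, which takes acylcarnitines into the matrix for fatty acid oxidation, ranged from 82.3 to 161 CPM in control limbs with a median of 118 CPM. It was at 215, 212 and 144 CPM after recovery (animals 369, 370 and 371), at 163, 135 and 136 CPM after atrophy (animals 362, 367 and 372) and at 123, 167 and 151 CPM after repeated atrophy (animals 364, 365 and 366). The recovery limbs of animals 369 and 370 were above all control limbs and that of animal 371 was not. The log2 fold change after recovery was 0.65 (SE 0.18, adjusted p = 0.033), with a block adjusted p of 0.24, and 4 of 18 fits that left out 1 limb lost the call. Slc25a1 was at 2.18 to 3.26 CPM after repeated atrophy against 0.57 to 2.12 CPM in control limbs (log2 fold change 0.55, adjusted p = 0.047), and this call was lost after rescaling, with the block and in 11 of 18 fits without 1 limb. The dicarboxylate carrier Slc25a10 and the oxodicarboxylate carrier Slc25a21 were not called in any comparison with control.

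Among 7 amino acid carriers, the glycine carrier Slc25a38, used in haem synthesis, was lowest after recovery. It ranged from 19.5 to 46.2 CPM in control limbs with a median of 32.3 CPM. The recovery limbs were at 11.5, 10.8 and 11.6 CPM (animals 369, 370 and 371), all below the control limbs, while the atrophy limbs were at 16.3, 31.4 and 26.1 CPM (animals 362, 367 and 372) and the repeated atrophy limbs at 23.5, 14.5 and 18.6 CPM (animals 364, 365 and 366). Its log2 fold change was -1.32 (SE 0.24, adjusted p = 0.0047) after recovery, a call kept in all 18 fits that left out 1 limb. With the animal as a block it was -0.85 (adjusted p = 0.12), and the right limbs of the recovery animals were low as well. After repeated atrophy it was -0.66 (adjusted p = 0.042), and -0.92 (adjusted p = 0.012) with the block. The call as deposited was lost in 9 of 18 fits that left out 1 limb, with an adjusted p of up to 0.23.

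Slc25a29, a carrier of basic amino acids, was at 15.8, 13.4 and 16.1 CPM after repeated atrophy (animals 364, 365 and 366). Control limbs ranged from 4.05 to 13.7 CPM with a median of 7.33 CPM, so the limb of animal 365 overlapped them. It was at 9.79, 5.38 and 11.5 CPM after atrophy (animals 362, 367 and 372) and at 4.00, 4.22 and 6.95 CPM after recovery (animals 369, 370 and 371). The log2 fold change after repeated atrophy was 0.97 (adjusted p = 0.015), and the call was lost after rescaling (0.61, adjusted p = 0.10), with the block (adjusted p = 0.074) and without the repeated atrophy limb of animal 366. The glutamate carrier Slc25a22 was not called: its control limbs ranged from 8.13 to 13.7 CPM with a median of 9.18, and it was at 12.7, 11.1 and 16.4 CPM after atrophy (animals 362, 367 and 372), 11.8, 7.74 and 9.09 CPM after recovery (animals 369, 370 and 371) and 13.2, 12.0 and 12.8 CPM after repeated atrophy (animals 364, 365 and 366). The other glutamate carrier, Slc25a18, stayed at or below 1.30 CPM in every limb of the TTX animals. The ornithine carriers Slc25a2 and Slc25a15 and the branched-chain amino acid carrier Slc25a44 were not called as deposited. After rescaling, Slc25a15 (-0.86) and Slc25a44 (-0.60) were called lower after repeated atrophy.

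The carriers of cofactors, nucleotides, iron and glutathione formed the largest role group: of 11 tested, 2 rose after atrophy, where 20.3% of all rows did, and 0 after recovery. After repeated atrophy 6 rose and 1 fell, against 28.1% and 6.24% of all rows, and rescaled 3 rose and 3 fell, against 12.9% and 12.2%. Slc25a16, linked to coenzyme A transport, ranged from 6.89 to 15.6 CPM in control limbs with a median of 10.6 CPM. It was at 41.9, 15.5 and 25.6 CPM after atrophy (animals 362, 367 and 372), at 16.3, 15.6 and 22.03 CPM after recovery (animals 369, 370 and 371) and at 22.3, 51.7 and 47.4 CPM after repeated atrophy (animals 364, 365 and 366). All repeated atrophy limbs were above the control limbs, and the atrophy limb of animal 367 was within them. The log2 fold change was 1.22 (SE 0.29, adjusted p = 0.0097) after atrophy and 1.77 (SE 0.29, adjusted p = 0.00026) after repeated atrophy, with a block adjusted p of 0.21 and 0.0081. After recovery it was 0.72 (adjusted p = 0.13), called only after rescaling (adjusted p = 0.046).

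Slc25a17, the peroxisomal cofactor carrier, ranged from 17.9 to 31.3 CPM in control limbs with a median of 21.9 CPM. It was at 48.3, 33.9 and 39.7 CPM after atrophy (animals 362, 367 and 372) and at 45.1, 41.4 and 41.3 CPM after repeated atrophy (animals 364, 365 and 366), in both cases above every control limb, and at 22.6, 17.5 and 31.3 CPM after recovery (animals 369, 370 and 371), within their range or just below it. It was the only member whose atrophy limbs were all above the control limbs, where 4.75% of all rows were so, and none was all below (0.52% of rows). Its log2 fold change was 0.77 (adjusted p = 0.012) after atrophy and 0.85 (adjusted p = 0.0029) after repeated atrophy. The atrophy call was lost after rescaling (0.41, adjusted p = 0.099) and with the block (adjusted p = 0.22). The sham limbs of animals 354 and 379, at 31.5 to 40.0 CPM, were also above the control limbs.

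The mitochondrial iron carriers differed from each other. Slc25a37 (mitoferrin 1) was at 2.89, 6.31 and 11.7 CPM after repeated atrophy (animals 364, 365 and 366), above the control limbs, which lay between 0.28 and 2.73 CPM with a median of 1.51 CPM. It was at 4.18, 2.00 and 2.70 CPM after atrophy (animals 362, 367 and 372) and at 1.47, 1.64 and 3.74 CPM after recovery (animals 369, 370 and 371), both overlapping the control limbs. After repeated atrophy the log2 fold change was 1.47 (SE 0.34, adjusted p = 0.0028). Slc25a28 (mitoferrin 2) was at 42.6, 40.8 and 44.0 CPM after repeated atrophy (animals 364, 365 and 366), below the control limbs, which lay between 44.4 and 79.2 CPM with a median of 61.2 CPM. The call for its fall needed rescaling (-0.83, adjusted p = 0.0017) or the block (-0.61, adjusted p = 0.011), since as deposited the log2 fold change was -0.44 (adjusted p = 0.056). It was at 48.8, 67.6 and 73.2 CPM after atrophy (animals 362, 367 and 372) and at 46.3, 44.8 and 38.0 CPM after recovery (animals 369, 370 and 371). The log2 ratio of Slc25a28 to Slc25a37 was 3.49, 2.51 and 1.83 in the repeated atrophy limbs and 3.75 to 5.84 in the control limbs, a difference of -1.91 (exact two-sided permutation p = 0.0045, adjusted p = 0.020). That permutation treats the limbs as independent. Within the repeated atrophy animals the left minus right difference averaged -2.10 ± 0.34 (SD, n = 3) and was negative in 3 of 3. The exact sign-flip test of these pairs gave p = 0.25, the smallest it can give. As Slc25a37 was at 0.28 to 2.73 CPM in control limbs, the 1 added to each value weighs on the size of this ratio. After atrophy the difference was -0.49 (exact p = 0.28) and after recovery -0.72 (exact p = 0.16).

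Slc25a39, a glutathione carrier, was at 68.0, 72.5 and 83.9 CPM after repeated atrophy (animals 364, 365 and 366), above the control limbs, which lay between 36.0 and 61.6 CPM with a median of 48.4 CPM. It was at 73.5, 53.6 and 78.5 CPM after atrophy (animals 362, 367 and 372) and at 37.7, 38.7 and 40.9 CPM after recovery (animals 369, 370 and 371). The log2 fold change after repeated atrophy was 0.58 (adjusted p = 0.0091) and stayed called with the block (0.61, adjusted p = 0.011), but was 0.19 (adjusted p = 0.35) after rescaling. The other glutathione carrier, Slc25a40, stayed between 0.59 and 1.53 CPM in all limbs of the TTX animals and was not called. The ratio of Slc25a40 to Slc25a39 differed from control by -0.58 after repeated atrophy (exact p = 0.077), -0.47 after atrophy (exact p = 0.13) and 0.27 after recovery (exact p = 0.35), and none passed. Slc25a32, a carrier of folate and FAD, was at 16.7, 15.3 and 12.1 CPM after repeated atrophy (animals 364, 365 and 366), against 6.38 to 13.9 CPM in control limbs with a median of 7.68. It was at 12.1, 12.1 and 14.8 CPM after atrophy (animals 362, 367 and 372) and at 9.26, 7.86 and 6.91 CPM after recovery (animals 369, 370 and 371). Its log2 fold change after repeated atrophy was 0.73 (adjusted p = 0.0097), and 0.38 (adjusted p = 0.16) after rescaling. The pyrimidine nucleotide carrier Slc25a33 rose after repeated atrophy as deposited (0.70, adjusted p = 0.044) but not after rescaling, and the S-adenosylmethionine carrier Slc25a26 fell in both (-0.59 and -0.91), with a block adjusted p of 0.088. The coenzyme A carrier Slc25a42 was not called in any comparison with control.

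The remaining 8 tested members are uncoupling-protein-like or have no settled substrate in this grouping, apart from Slc25a46, which acts in mitochondrial dynamics. None was called after atrophy or recovery as deposited, and 3 rose and 2 fell after repeated atrophy, against 28.1% and 6.24% of all rows. Rescaled, 2 rose and 2 fell after repeated atrophy, against 12.9% and 12.2%, and Slc25a35 was called lower after atrophy (-0.91, adjusted p = 0.024). The uncoupling-protein-like Slc25a14 averaged 6.90 ± 2.27 CPM after repeated atrophy (SD, n = 3) against 2.90 ± 1.30 in control limbs (n = 9), and Slc25a27 averaged 4.95 ± 0.73 against 2.14 ± 1.04 CPM. Their log2 fold changes were 1.05 (adjusted p = 0.0077, block adjusted p = 0.056) and 0.97 (adjusted p = 0.0060, block adjusted p = 0.0078), and both were also called after rescaling. The sham limbs of animal 379 reached similar levels, 5.89 and 5.05 CPM for Slc25a14 and 5.25 and 8.71 CPM for Slc25a27. Slc25a30, a related carrier, fell to 2.56 ± 1.87 CPM from 6.91 ± 3.20 CPM (log2 fold change -1.25, adjusted p = 0.010, and adjusted p = 0.12 without the repeated atrophy limb of animal 364, which was at 0.42 CPM). Slc25a35 fell by 0.65 on the log2 scale (adjusted p = 0.046, block adjusted p = 0.18). Slc25a46 rose by 0.50 on the log2 scale (adjusted p = 0.049) as deposited, was at 0.11 after rescaling and had a block adjusted p of 0.069, and 13 of 18 fits without 1 limb lost that call. Slc25a34, Slc25a45 and Slc25a53 were not called in any comparison with control.

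The control limbs themselves differed by time point. In the 3 right limbs collected at the recovery time, 5 members lay above all 6 other control limbs (2.82% of all rows did) and 6 lay below them (8.07% of rows). Those above were Slc25a3, Slc25a4, Slc25a11, Slc25a15 and Slc25a23, and those below were Slc25a2, Slc25a14, Slc25a16, Slc25a17, Slc25a28 and Slc25a38. At the atrophy and repeated atrophy times, 0 members stood apart in this way, against 3.67% of all rows above and 0.976% below at the former and 0.656% and 0.649% at the latter. Slc25a4 was at 5177 to 5423 CPM in the right limbs of the recovery time and at 2869 to 4685 CPM in the other 6, and Slc25a38 at 19.5 to 23.3 CPM against 27.9 to 46.2 CPM. For 8 of these 11 members, both limbs of the sham animal of the recovery time (377) lay outside the other 4 sham limbs on the same side, the exceptions being Slc25a2, Slc25a15 and Slc25a16. The same held for 68.2% of the 1529 rows that stood apart in these right limbs. Slc25a4 was at 4915 and 5028 CPM against 3073 to 3743 CPM, Slc25a38 at 21.2 and 28.2 CPM against 38.7 to 47.5 CPM, and Slc25a28 at 49.1 and 45.1 CPM against 74.6 to 93.4 CPM. These limbs received no TTX, and the animals of a time point cannot be told apart from the time of collection. Against the right limbs of the same time point, 0 members were called after atrophy or recovery, where 0% and 0.349% of all rows were, and 9 rose and 6 fell after repeated atrophy, against 22.1% and 5.05% of all rows. On that basis Slc25a3 differed by 0.22 and Slc25a4 by 0.00 on the log2 scale after recovery, against 0.53 and 0.25 with all 9 control limbs.

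**Figure D4:**
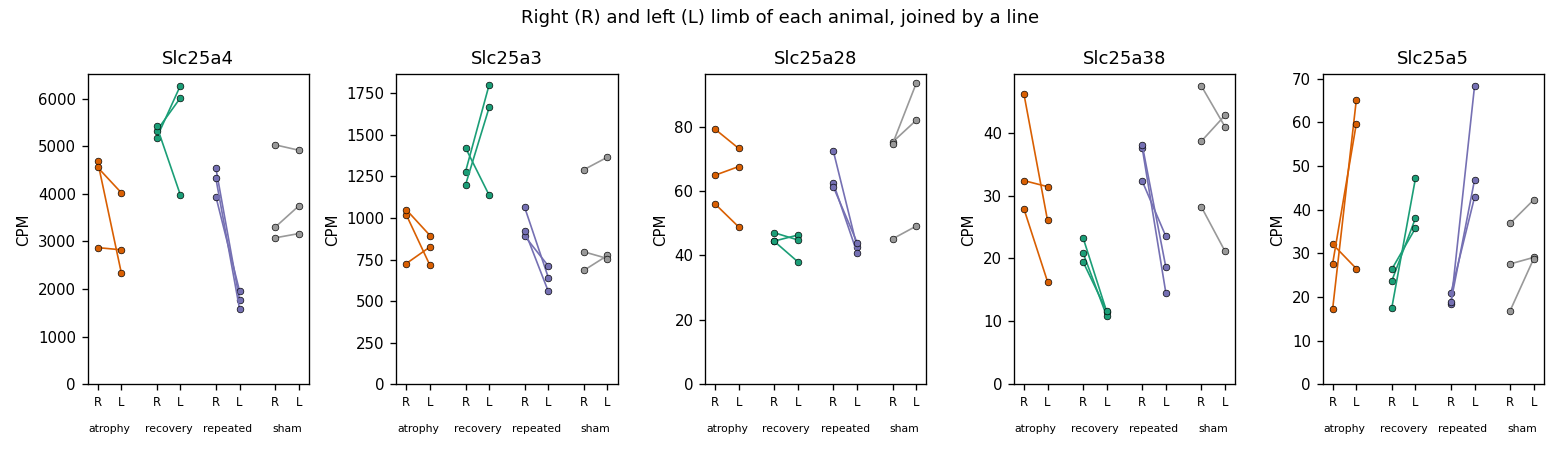
CPM (y axis, linear from 0) of 5 carriers in the right (R) and left (L) limb of each animal, with a line joining the limbs of an animal and the 4 sets of animals side by side. All 3 repeated atrophy animals have a lower left limb for Slc25a4, Slc25a3, Slc25a28 and Slc25a38 and a higher one for Slc25a5, while the right limbs of the recovery animals are already high for Slc25a4 and low for Slc25a28 and Slc25a38.

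Within animals, 15 of the 37 members were higher and 12 lower in the left limb of all 3 repeated atrophy animals, against 7 and 4 of the atrophy animals, 7 and 11 of the recovery animals and 9 and 3 of the sham animals. Over all rows, 40.6% were higher and 13.6% lower in all 3 repeated atrophy animals, 25.5% and 7.60% in all atrophy animals, 29.8% and 14.9% in all recovery animals and 14.6% and 8.99% in all sham animals. Of the members, 40.5% were higher and 32.4% lower in all 3 repeated atrophy animals. Over the 37 members, the median size of the mean difference between limbs was 0.61 on the log2 scale for repeated atrophy. It was 0.21 for atrophy, 0.21 for recovery and 0.14 for sham. This size was not computed over all rows, so it is not shown to be particular to the carriers.

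Treated groups were also compared directly. Recovery differed from atrophy for 4 members, with Slc25a3 higher and Slc25a17, Slc25a38 and Slc25a39 lower, against 3.34% of all rows higher and 14.5% lower. After rescaling, 2 were higher, Slc25a3 and Slc25a20, and 0 lower, against 6.02% and 4.58% of rows. Repeated atrophy differed from recovery for 12 members, 9 higher and 3 lower, against 21% and 6.29% of rows. After rescaling 3 were higher and 6 lower, against 9.78% and 11.8% of rows. Slc25a4 (-1.59), Slc25a3 (-1.25) and Slc25a11 (-0.68) were lower and Slc25a27, Slc25a29 and Slc25a39 higher on both scales. With the animal as a block, 0 members were called in either comparison, and 0.0143% and 0.0855% of all rows were called. Members at an unadjusted p under 0.05 numbered 2 and 9. No unadjusted share of all rows is given for these counts, which are not read as a result about the members. Without the control limb of animal 372, 7 members differed between recovery and atrophy; without the atrophy limb of animal 362 there were 2, and without the atrophy limb of animal 372 or the recovery limb of animal 369 or 370 there were 0. Between repeated atrophy and recovery, 7 differed without the recovery limb of animal 369 or the repeated atrophy limb of animal 365, and 5 without the recovery limb of animal 370. Between repeated atrophy and atrophy, limma called 0 members, with 7 at an unadjusted p under 0.05 (3 after rescaling and 3 with the block), and 0.0356% of all rows were called, so no member was shown to differ between the first and the second period of TTX. Slc25a4, at 3063 ± 865 CPM after atrophy and 1770 ± 188 CPM after repeated atrophy (SD, n = 3 each), was among those without a call.

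No member was called between left sham and control limbs: limma called 0 of 38 tested, and 0% of all rows were called. At an unadjusted p under 0.05 there were 5 members (4 after rescaling), for which no unadjusted share of all rows is given. Slc25a4 averaged 3940 ± 892 CPM in the left and 3799 ± 1070 CPM in the right sham limbs (SD, n = 3 each).

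Genes that work beside the carriers were read from fixed lists. Of 18 partner enzymes, such as those of the malate-aspartate and glycerol phosphate shuttles, 1 rose and 5 fell after atrophy, 0 were called after recovery, and 1 rose and 10 fell after repeated atrophy (1 and 12 rescaled, against 12.9% and 12.2% of all rows). Rescaled, 0 rose and 8 fell after atrophy, against 4.62% and 5.21% of all rows. As deposited, the falls are 27.8% and 55.6% of the list, against 2.33% and 6.24% of all rows. The fit with animal as a block called 0 after atrophy or recovery, where 0% and 0.0641% of all rows were called, and in it 2 rose and 7 fell after repeated atrophy, against 21.5% and 5.66%. The largest falls after repeated atrophy were those of Gpd1, the cytosolic enzyme of the glycerol phosphate shuttle (1067 ± 418 CPM in control limbs, n = 9, and 85.9 ± 18.3 CPM, n = 3, log2 fold change -3.44), and of Ckmt2, the mitochondrial creatine kinase of muscle (1014 ± 513 and 276 ± 88 CPM, log2 fold change -1.73). The rise was that of Cpt1a, an enzyme of the acylcarnitines that Slc25a20 carries (10.1 ± 4.4 and 26.0 ± 7.8 CPM, log2 fold change 1.35). Its relative Cpt1b, at higher levels in these limbs (350 ± 111 and 485 ± 63 CPM), was not called as deposited (0.51, adjusted p = 0.083) or rescaled (0.12, adjusted p = 0.70). With the block it was called higher (0.62, adjusted p = 0.013). In the sham limbs of animal 379, which received no TTX, Ckmt2 was at 140 and 217 CPM and Cpt1a at 32.2 and 31.6 CPM, beyond all control limbs on the same side as the repeated atrophy means, whereas Gpd1, at 336 and 418 CPM, was within the control range.

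Of 23 tested genes for mitochondrial transport under other symbols, 4 rose and 1 fell after atrophy, 3 rose after recovery, and 8 rose and 2 fell after repeated atrophy. The rises are 17.4%, 13.0% and 34.8% of the list, against 20.3%, 4.4% and 28.1% of all rows, and the falls after atrophy and repeated atrophy are 4.35% and 8.70%, against 2.33% and 6.24%. After rescaling, 1 rose and 3 fell after atrophy, against 4.62% and 5.21% of all rows, and 3 rose and 8 fell after repeated atrophy, against 12.9% and 12.2% of all rows. In the block fit 0 were called after atrophy or recovery, and 7 rose and 1 fell after repeated atrophy, against 21.5% and 5.66% of all rows. The uncoupling protein Ucp3, a member of the same protein family under another name, averaged 535 ± 87 CPM after atrophy and 530 ± 63 after repeated atrophy (SD, n = 3 each), and was at 130, 84.0 and 70.8 CPM in the recovery limbs of animals 369, 370 and 371. Against control, the log2 fold change was 2.14 (adjusted p = 0.022) after atrophy, -0.38 (adjusted p = 0.75) after recovery and 2.13 (adjusted p = 0.013) after repeated atrophy. The atrophy call was lost after rescaling (1.76, adjusted p = 0.065) and with the block (1.06, adjusted p = 0.28), and the repeated atrophy call stayed with the block (2.01, adjusted p = 0.017). Its control limbs spread widely, at 184 ± 188 CPM (SD, n = 9), with 481 and 518 CPM in the right limbs of animals 367 and 372. The sham limbs of animal 379 were at 527 and 633 CPM, within or above the range of the repeated atrophy limbs, 458 to 574 CPM. The sideroflexins Sfxn5 and Sfxn2 fell after repeated atrophy, with log2 fold changes of -0.94 and -0.60, from levels of 2.82 and 0.91 CPM, and block adjusted p of 0.061 and 0.0047. Mtch2, an outer membrane relative of the carriers, rose by 0.51 on the log2 scale after atrophy and after repeated atrophy and by 0.14 and 0.12 after rescaling, which were not called, with a block adjusted p of 0.46 and 0.038. Ucp2 and Mtch1 were not called in any comparison with control as deposited or rescaled, and Mtch1 was called higher after repeated atrophy with the block (0.44, adjusted p = 0.047).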

How the data were processed

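Both TA muscles of 12 rats gave 24 samples, and 3 further value columns that match no sample were not used. The authors prepared directional libraries from polyadenylated RNA in randomized order, removed contaminant reads with Bowtie2 2.2.5, and used STAR (genome rn7) and Partek Flow for the rest. Which annotation and counter were used is not given in the sources used here. The values the authors deposited are CPM, as each column sums to 1000000, and not the median of ratios values that the planned design assumed; the tests planned for normalized values were kept. CPM were computed by the authors; everything below was computed from them.

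Depth, inferred from the step between low values, was 18.9 to 30.9 (median 26.1) in units of 1000000 reads. Between 89.8% and 91.6% of low values were whole multiples of the step within 0.1, so reads were not treated as recovered and no count test was run. Of 14271 rows, 28 duplicates were dropped. Rows above 0 in at least 3 limbs of a fit were tested in limma 3.58.1 under R 4.3.3 on log2(CPM + 1) values, the trend option on and all 18 limbs of the TTX animals in 1 fit without an animal term. Sham left limbs were set against the 9 control limbs in a fit of their own. The main test was also run on simulated libraries that had no animal effect and no shift of all rows. That run cannot speak to the pairing of limbs or to the scaling. Ratios were compared by exact permutation over limbs (Python 3.11.15). A limb is 1 sample of 1 animal. The main fit and the permutation over limbs treat limbs as independent, although each treated limb shares its animal with a control limb. Their p-values ignore that pairing, whereas the block fit and the test of ratios within animals use the differences between the limbs of an animal.

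Left and right limbs share an animal, which gives the pairing. Deviations of limbs from their group means correlated between -0.33 and 0.53 in the TTX animals and between 0.61 and 0.84 in the sham animals, and the fit with animal as a block is given beside the members' calls it changed.

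The members, the role groups and the gene lists were chosen with earlier results of these data known. Values in every limb were given for the 5 largest rises and falls called per control comparison with a mean of at least 10 CPM in 1 group, and for a fixed set of carriers. Carriers Slc25a6, Slc25a12, Slc25a13, Slc25a31, Slc25a36, Slc25a43, Slc25a48, Slc25a51 and Slc25a52 were not analysed here. Some results of single genes are not reported here, although the genes stay in the counts.

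Alternatives were pseudocounts of 0.1 and 10, rescaling by median of ratios, trimmed mean (30% of ratios, 5% of levels) or quantiles, a minimum mean of 10 CPM or no filter, 12 right limbs, own right limbs, blocks, only the groups compared, no trend, a fold of 1.5 or none, and each limb left out. The block with rescaling and the test of ratios within animals were added after the data were seen.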

Additional observations from a re-analysis of the deposited data

Results flagged for a closer look

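The right limb of animal 372 was far from the other control limbs for the glutamate carrier Slc25a22, at 13.7 CPM, where the gap to the next limb was 0.51 of the range of the 9 limbs. This was 1 of 16 carriers examined in this way, and chance alone flags about 1 group in 20.

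Several carriers differed between treated groups. Between recovery and atrophy, the log2 difference was -1.01 for Slc25a38, -0.78 for Slc25a39, -0.77 for Slc25a17 and 0.90 for Slc25a3. Between repeated atrophy and recovery it was -1.59 for Slc25a4, -1.25 for Slc25a3 and -0.68 for Slc25a11. In the other direction it was 0.80 for Slc25a32, 0.85 for Slc25a17, 0.91 for Slc25a39, 0.93 for Slc25a33, 1.03 for Slc25a14, 1.05 for Slc25a16, 1.18 for Slc25a27, 1.18 for Slc25a37 and 1.44 for Slc25a29. Each of these passed the limma test of the difference itself as deposited, and none did with the animal as a block.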

How the results depend on the processing

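The number of members called moved by over 1.5 times under several settings. After atrophy, where 3 were called, the count was 6 with a pseudocount of 10, 7 with a mean of at least 10 CPM, 5 with 12 right limbs, 0 with own right limbs, 7 with no trend, 5 with animal as a random effect and 0 with animal as a fixed replicate block, as deposited or rescaled. After recovery, where 4 were called, it was 0 with own right limbs, 0 with the fixed block and 1 with the block and rescaling. After repeated atrophy, where 20 were called, it was 13 with a mean of at least 10 CPM. Between recovery and atrophy, where 4 were called, it was 2 with the median of ratios, the trimmed mean or quantiles, 1 with only the groups compared and 0 with the fixed block, as deposited or rescaled. Between repeated atrophy and recovery, where 12 were called, it was 0 with the fixed block on either scale. With 1 limb left out, the counts ranged from 0 to 10 after atrophy, 1 to 5 after recovery, 13 to 22 after repeated atrophy, 0 to 7 between recovery and atrophy and 5 to 12 between repeated atrophy and recovery. The filter on the mean tests fewer rows, and the other causes were not tested. Repeated atrophy against atrophy and sham left against control stayed at 0 wherever a count was computed.

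The log2 ratio of Slc25a5 to Slc25a4 after atrophy was 1.23 to 2.26 with 1 atrophy limb left out. The ratio of Slc25a40 to Slc25a39 passed at -0.39 after atrophy and -0.50 after repeated atrophy with a pseudocount of 10, and at -0.59 after repeated atrophy with 12 right limbs. Ratios of Slc25a13 to Slc25a12 and of Slc25a18 to Slc25a22 were not run, the former not analysed here and the latter below the set level. For single members, of the alternatives computed, 867 kept the direction and the side of the threshold, 172 kept the direction without the call, 4 gained a call and 1 changed sign: Slc25a4 after recovery, which was never called, at -0.12 with the block and rescaling. Depth limits the members near 0, where 1 read is worth at most 0.053 CPM.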

Other observations

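Unlike those of muscle fibres and satellite cells, the summed markers of 5 other lists overlapped between repeated atrophy and control limbs. Endothelial markers summed to 146 to 230 CPM after repeated atrophy against 184 to 259 CPM in control limbs, and macrophage markers to 38.3 to 99.7 against 34.1 to 127 CPM. Schwann cell markers summed to 30.7 to 37.9 against 19.9 to 48.7 CPM, adipocyte markers to 7.23 to 16.7 against 5.06 to 27.3 CPM, and cycling markers to 3.51 to 4.26 against 0.46 to 4.79 CPM.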
